A study of Danio rerio with 6 samples.

Results

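The genes described are those of the cytosolic ribosomal proteins, the protein part of the ribosomes that translate nuclear mRNAs. They were taken by symbol: every gene named *rpl* or *rps* with a number, and the stalk genes *rplp0*, *rplp1*, *rplp2* and *rplp2l*. Kinases and other proteins whose symbols only begin alike were left out. The rule gave 82 of the 34965 genes in the table, 46 of the large and 36 of the small subunit, and it used no expression value. They carry 78 symbols, because 4 symbols, *rpl5* and *rps26* among them, each stand for a pair of gene identifiers. No gene in the table was matched to the symbol *rpsa* or *rpl27a*, so neither is among the 82.

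The expression data came from heads of zebrafish embryos of the AB strain at 36 hpf (hours post-fertilization). There were 3 libraries from *prpf31*-/- mutants, a CRISPR/Cas9 knockout of a gene whose protein joins the U4/U6 part of the spliceosome to U5, and 3 from their siblings, which the labels call wild type. For each of them, 35 heads of known genotype were pooled and their poly(A) RNA was sequenced. The study describes *prpf31* mRNA as supplied by the mother to the early embryo. The p values measure the spread between such pools of heads.

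The ribosome has a small subunit, which reads the mRNA, and a large subunit, which joins amino acids at the peptidyl transferase centre. Each is built in the nucleolus from ribosomal RNA and about as many copies of every ribosomal protein, and the mRNAs of these proteins, which begin with a terminal oligopyrimidine (TOP) tract, are among the most abundant of growing embryonic tissue. In zebrafish as in mammals, loss of single ribosomal proteins is known to set off a nucleolar stress checkpoint, in part through Rpl5 and Rpl11, which bind the ubiquitin ligase Mdm2 together with 5S rRNA.

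Library totals lay between 65612727 and 66381302 counts in mutants, against 58706617 to 65799306 in siblings. The library mutant 1 stood apart. Its TMM factor, by which edgeR corrects a library's size for its composition, was 0.816, against 1.02 to 1.06 in the other 5 libraries. Summed over 13 marker genes of head neural and eye tissue, its level was 360 CPM (counts scaled to a common library size by TMM), against 854 CPM in mutant 2, 770 CPM in mutant 3 and 829 to 905 CPM in siblings. The 6 lens genes summed to 100.2 CPM in mutant 1, 536 CPM in mutant 2 and 496 CPM in mutant 3, against 715 to 867 CPM in siblings. In the other direction, 9 skeletal muscle genes summed to 44047 CPM in mutant 1 and to 16129 and 15803 CPM in mutants 2 and 3, against 19152 to 23358 CPM in siblings. The 12 *hox* and *tbxta* rows that mark trunk and tail summed to 192, 64.2 and 84.1 CPM in mutants, against 86.7 to 93.8 CPM in siblings. No marker of these lists was at 0 in all libraries, and the part of tissue makeup in the results was not tested beyond leaving mutant 1 out. In such bulk samples, fewer cells of a type and less RNA per cell cannot be told apart. The level of *prpf31* itself was 22.4, 24.5 and 27.3 CPM in mutants, against 38.7, 37.9 and 37.6 CPM in siblings, so every mutant library was below every sibling library.

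Ribosomal protein mRNAs were abundant in both groups. All 82 genes passed the filter on low counts. Their median level, as the mean FPKM (fragments scaled to gene length and library size) over the 6 libraries, was 1098. The highest was *rps2* (ENSDARG00000077291), a small subunit protein near the mRNA entry channel, at 6537 ± 411 FPKM in mutants and 6365 ± 305 FPKM in siblings (SD, n = 3 each). After it came *rps20*, of the head of the small subunit, with 3785 ± 610 FPKM in mutants and 4109.5 ± 245 FPKM in siblings, and *rplp0*, the base of the stalk that receives elongation factors, with 2876 ± 217 FPKM in mutants and 2944 ± 90.6 FPKM in siblings (SD, n = 3 each). Next were *rps15* with 2806 ± 343 FPKM in mutants and 2964 ± 172 FPKM in siblings, and *rpl7* with 2742 ± 249 FPKM in mutants and 2839.8 ± 72.4 FPKM in siblings (SD, n = 3 each). In each of these genes the groups differed by less than the larger SD, and the neighbours *rplp0*, *rps15* and *rpl7* had no order beyond their spread.

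Only 4 members stood below 10 CPM in siblings. Among these were *rpl9* and *rpl26*, while the other 78 lay between 19.6 CPM (*rps27l*) and 4456 CPM (*rps2*) as sibling means. *rpl9* and *rpl26* encode core proteins of the large subunit, yet their rows, each the sole row under its symbol, averaged 6.22 and 1.80 FPKM over the 6 libraries. Whether these rows hold the main transcripts of *rpl9* and *rpl26* is not shown by the table, and their values are given as those of the rows.

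**Figure D1:**
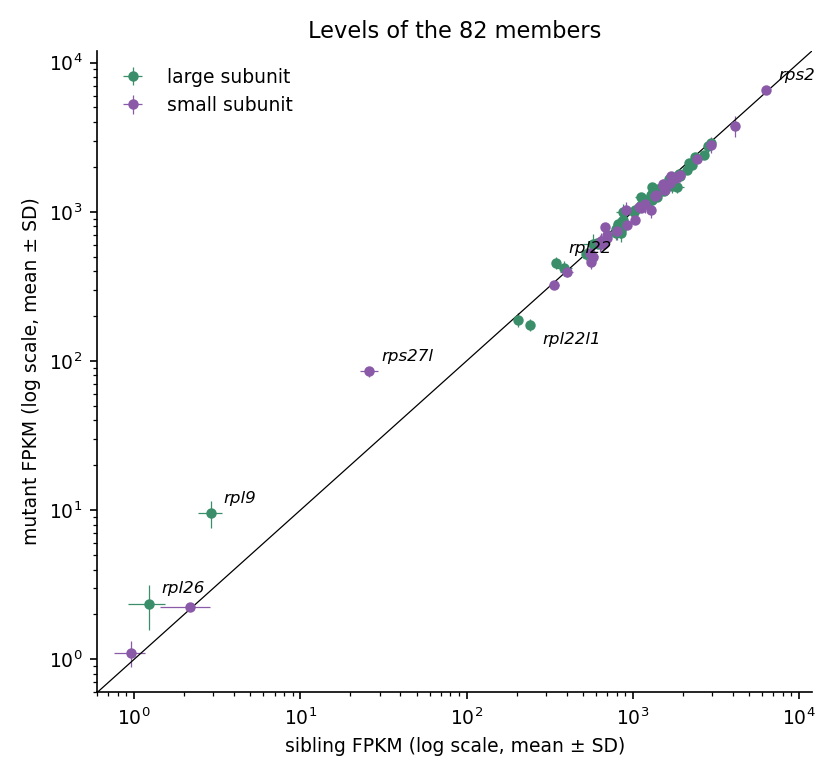
Mean FPKM of each of the 82 genes in mutants (vertical) against siblings (horizontal), both on log scales, with bars of 1 SD over 3 libraries and the line of equal levels. Most genes lie along the line, and *rps27l* and *rpl9* lie above it, at 85.0 and 9.53 FPKM in mutants against 26.0 and 2.90 FPKM in siblings.

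Of the 82 genes, 2 rose and 0 fell in mutants by edgeR's quasi-likelihood test at an adjusted p of 0.05 or lower. Over all genes tested, 3.96% were called higher and 3.83% lower, and 2.44% of the members were called in either direction, beside 7.79% of all genes. Without adjustment, 4 members had a p under 0.05, all of them higher in mutants, beside 24.2% of all genes. DESeq2 called 4 members higher and 0 lower, where it called 6.57% and 6.26% of all genes. Limma on log2(FPKM + 1) called 2 higher and 0 lower, where it called 2.06% and 3.46% of all genes. The median log2 fold change of the members was 0.09, against 0.02 over all genes tested, and 68 members lay within 0.2 of 0 on the log2 scale. Their standard errors (SE) ran between 0.14 and 0.34, with a median of 0.18, so a shift of 0.2 on the log2 scale in a typical member was about as large as its error.

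**Figure D2:**
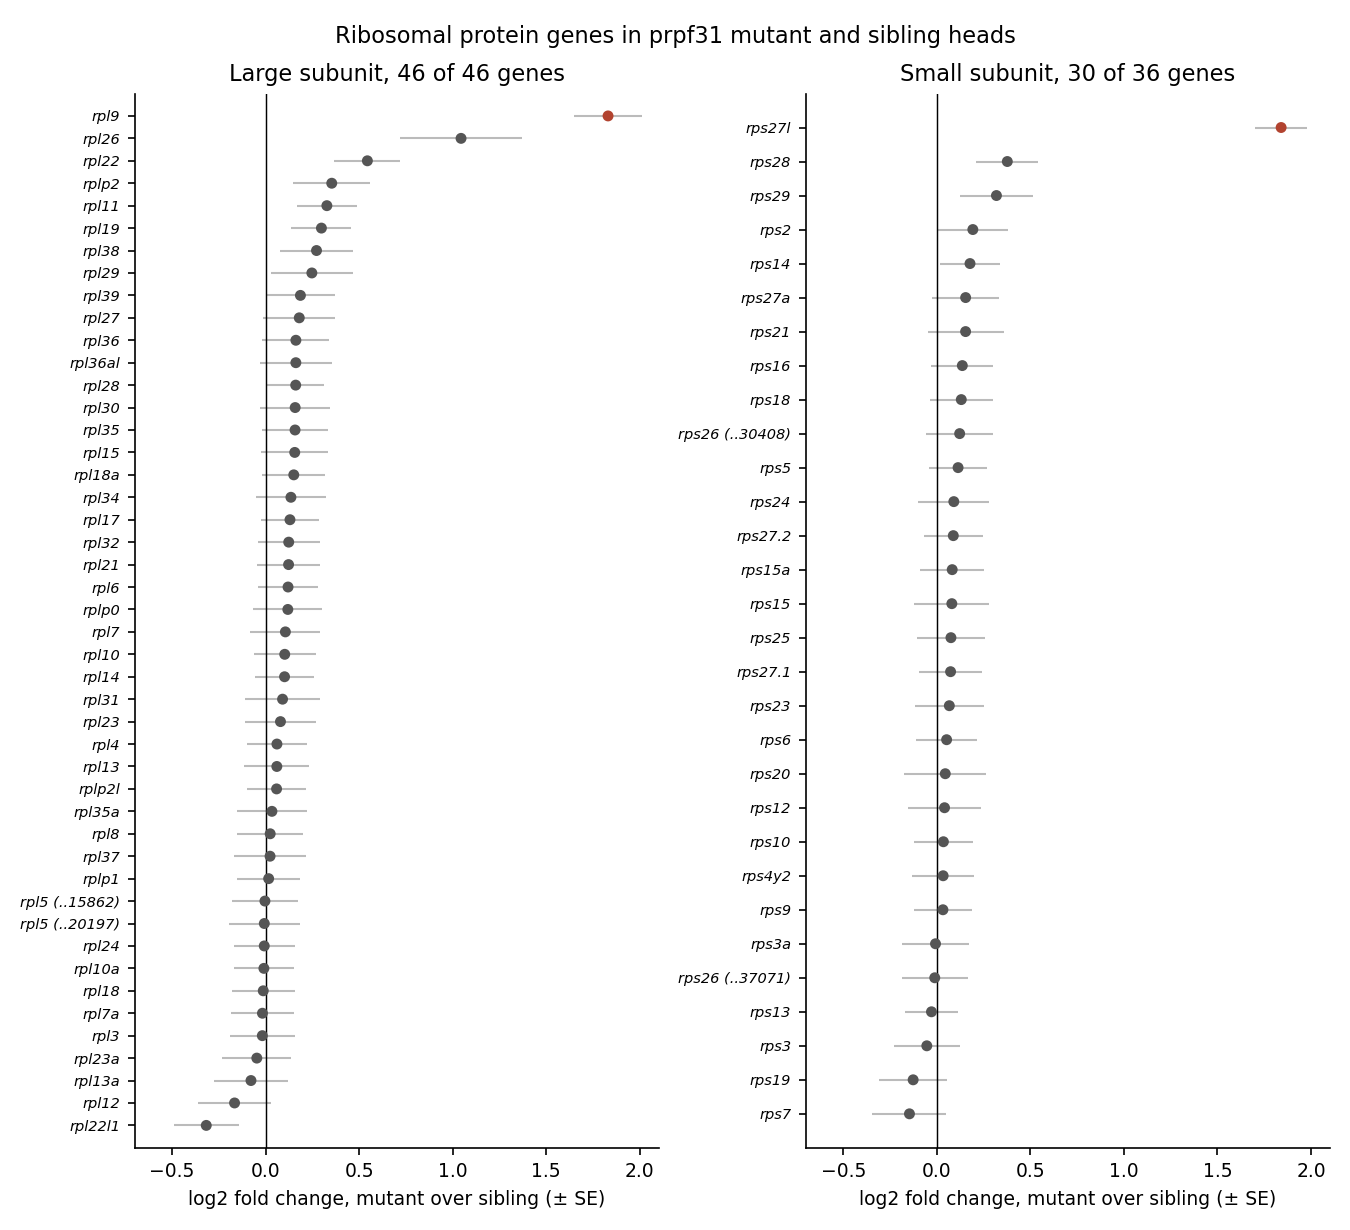
Log2 fold change of the members, mutant over sibling, with 1 standard error derived from edgeR's F statistic, for the large subunit (left, all 46) and the small subunit (right, 30 of 36). Red points passed the adjusted p of 0.05: *rpl9* at 1.83 and *rps27l* at 1.84; at the low end stand *rpl22l1* at −0.32 and *rps7* at −0.15, which did not. Digits in parentheses are the ends of gene identifiers that share a symbol.

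*rps27l* (ENSDARG00000100513) encodes a paralog of the small subunit protein Rps27. It had 75.4, 66.4 and 68.8 CPM in mutants, against 22.4, 16.6 and 19.8 CPM in siblings. Every mutant library was far above every sibling library, and the mutants differed little among themselves. The log2 fold change was 1.84 (SE 0.14, adjusted p = 0.000697 by edgeR's quasi-likelihood test), or 3.58-fold. Without mutant 1 the log2 fold change was 1.78, so the rise did not rest on that library.

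The row of *rpl9* (ENSDARG00000037350) was the other gene called, at a far lower level. Its counts were 410, 593 and 600 in mutants, against 171, 132 and 154 in siblings, or 7.63, 8.75 and 8.78 CPM against 2.86, 2.02 and 2.20 CPM. All mutant libraries were above all sibling libraries, and mutant 1 was the lowest of the mutants here, unlike in most members. The log2 fold change was 1.83 (SE 0.18, adjusted p = 0.00218, edgeR), and 1.89 without mutant 1. The low row of *rpl26* (ENSDARG00000102317) held 56, 108 and 111 counts in mutants, against 39, 57 and 38 in siblings. Its log2 fold change of 1.04 (SE 0.32) did not pass by edgeR (adjusted p = 0.0961), but did by DESeq2 (adjusted p = 0.0323) and by edgeR without mutant 1 (adjusted p = 0.0394).

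The balance of *rpl22* (ENSDARG00000070437) and *rpl22l1* (ENSDARG00000010244) differed between the groups. Their products are alternative forms of the same large subunit protein, and in mice Rpl22 protein is known to hold down the mRNA of *Rpl22l1*. *rpl22* had 774, 581 and 502 CPM in mutants, against 448, 427 and 398 CPM in siblings, while *rpl22l1* had 143, 97.3 and 95.7 CPM in mutants, against 146, 132 and 141 CPM in siblings. All mutants were above all siblings for *rpl22*, but for *rpl22l1* mutant 1 lay within the siblings and the other mutants below them. The log2 fold changes were 0.54 (SE 0.18, adjusted p = 0.108, edgeR) for *rpl22* and −0.32 (SE 0.17, adjusted p = 0.306, edgeR) for *rpl22l1*, neither of which passed. Without mutant 1 both passed edgeR's test, *rpl22* at 0.34 (adjusted p = 0.0414) and *rpl22l1* at −0.54 (adjusted p = 0.00426), and DESeq2 on all libraries called *rpl22* (adjusted p = 0.0439). The ratio of the pair within each library does not depend on the scaling. It was 5.53 in mutants and 3.04 in siblings, as geometric means of counts, and the log2 ratio differed by 0.86 (SE 0.079). A 2-sided exact permutation test gave p = 0.1, the smallest that 3 against 3 libraries allow. After Benjamini-Hochberg adjustment over the 10 paralog pairs compared below, that p was 0.2. By FPKM, *rpl22* made up 71.8%, 73.8% and 71.2% of the pair in mutants, against 59.1%, 60.3% and 57.2% in siblings. The sum of both genes was 627 ± 56.3 FPKM in mutants and 588 ± 11.4 FPKM in siblings (SD, n = 3 each), a difference within the spread of the mutants.

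**Figure D3:**
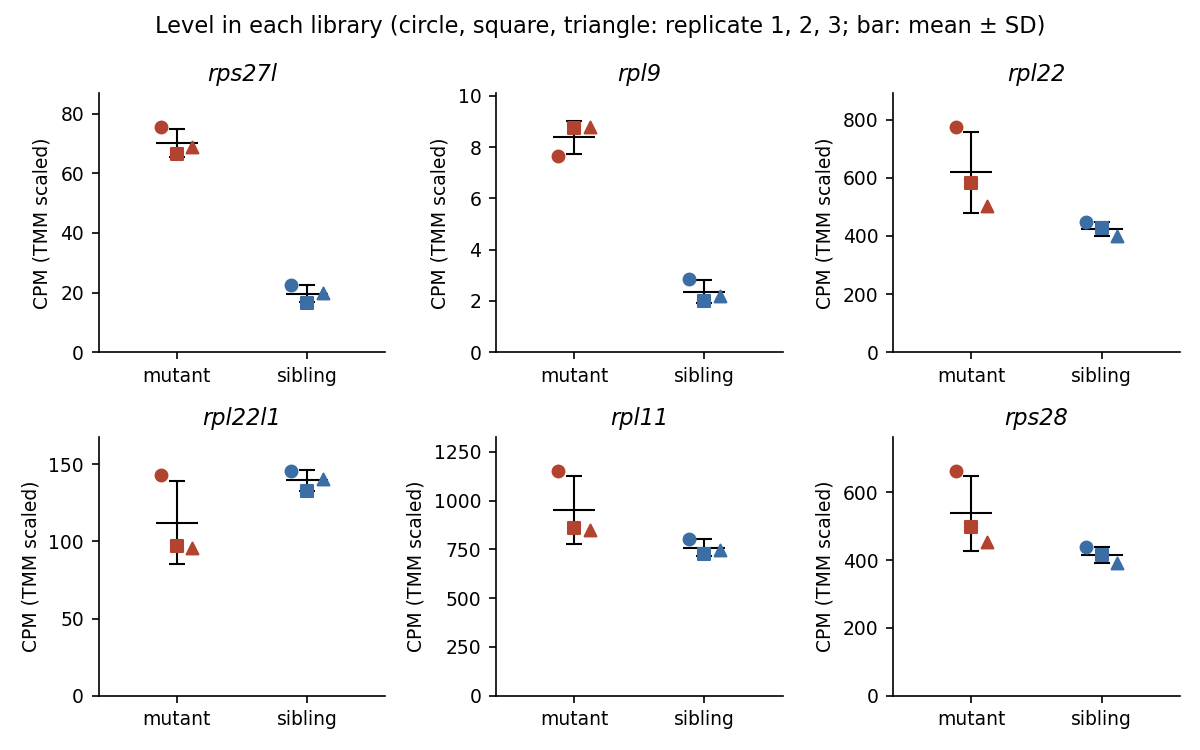
CPM in each library for 6 members, mutants left of siblings, with the mean and SD of 3 libraries in black. *rps27l*, *rpl9*, *rpl22*, *rpl11* and *rps28* have all mutants above all siblings, and for *rpl22l1* the mutants at 97.3 and 95.7 CPM lie below all siblings while mutant 1 lies at 143 CPM.

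The positive median of the family rested on mutant 1. Among all 6 libraries, 79 of the 82 members were highest in mutant 1. Over the 82 members, the median log2 ratio of a mutant library's CPM to the sibling mean was 0.42 in mutant 1, −0.06 in mutant 2 and −0.13 in mutant 3. The same median over the genes tested that had counts in every sibling was −0.03, −0.02 and −0.01. In mutant 1, 81 of the 82 members were above all siblings. In mutant 2, 8 were above and 34 below all siblings, and in mutant 3, 8 were above and 56 below. These counts, and that of members highest in mutant 1, were not taken over all genes, so no share of all genes stands beside them. They also rest on TMM scaling, in which mutant 1 had a factor of 0.816. Of the total count, without that scaling, the members together held 7.93% in mutant 1, against 7.90%, 7.54% and 7.80% in siblings. The head, lens, muscle and trunk markers that set mutant 1 apart are given above, and their part in this shift was not tested.

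Without mutant 1, the family leaned the other way: the median log2 fold change was −0.11 (−0.01 over all genes). Below 0 were 68 of 82 members, against 18 of 82 with all libraries. Over all genes tested, 12712 of 24821 were below 0 without mutant 1, and 11722 of 24277 with all libraries. In that fit 4 members rose and 5 fell by edgeR, where 8.22% of all genes were called higher and 8.17% lower. The 4 that rose were *rps27l*, *rpl9*, *rpl26* and *rpl22*. Those that fell were *rpl22l1*, *rps7* at −0.40 (adjusted p = 0.0125, edgeR), *rps19* at −0.35 (adjusted p = 0.0162, edgeR), *rpl12* at −0.39 (adjusted p = 0.0435, edgeR) and *rpl13a* at −0.34 (adjusted p = 0.031, edgeR), the last named after its values were seen. Rps7 and Rps19 are small subunit proteins whose genes are mutated in human Diamond-Blackfan anaemia, and Rpl12 sits at the base of the stalk. With all libraries, none of these 5 was called. *rps7* had 958, 635 and 592 CPM in mutants, against 850, 791 and 777 CPM in siblings. *rps19* had 801, 561 and 517 CPM in mutants, against 688, 691 and 672 CPM in siblings. Mutant 1 was the highest and mutants 2 and 3 the lowest libraries for both genes, so their groups overlapped and their log2 fold changes were −0.15 and −0.13.

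The direction of the family median depended on the scaling. It was −0.06 with library sizes alone and −0.07 by limma on FPKM, where the median of all genes had also moved, by −0.13 with library sizes alone and by −0.11 with limma on log2(FPKM + 1). Relative to the median of all genes, the members stood at 0.07 in the main comparison, 0.04 with library sizes alone, 0.03 with limma on log2(FPKM + 1), −0.04 with the same limma fit without a filter on low values, and −0.10 without mutant 1. With library sizes alone, 24 of 82 members were above 0, against 64 by TMM. Over all genes tested, 9488 of 24277 were above 0 with library sizes alone, and 12555 by TMM. The calls of *rps27l* and *rpl9* held under each of these.

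As a share of all counts, the 82 genes held 7.93%, 7.22% and 6.99% in mutants, against 7.90%, 7.54% and 7.80% in siblings. The means were 7.38 ± 0.490% and 7.75 ± 0.183% (SD, n = 3 each, mutants and siblings), a difference of −0.37 percentage points where the pooled SD was 0.370. Mutant 1 was the highest library on this measure, about level with sibling 1, and mutants 2 and 3 were below all siblings. Set against the effective size after TMM instead, the share was 9.72%, 7.06% and 6.71% in mutants, against 7.76%, 7.10% and 7.33% in siblings, and mutant 1 was the highest library by a wider margin. Of the summed FPKM, the genes held 15.6%, 14.7% and 14.4% in mutants, against 15.9%, 15.3% and 15.6% in siblings.

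**Figure D4:**
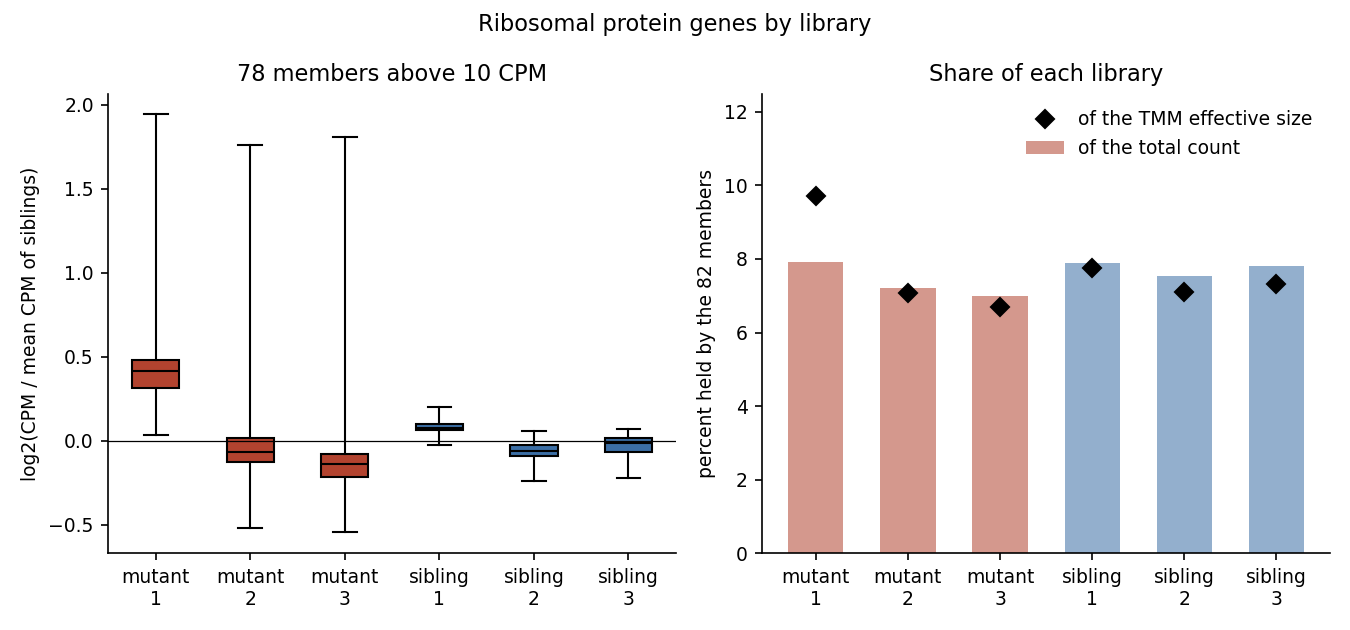
Left, log2 ratio of CPM to the sibling mean for the 78 members above 10 CPM in each library (box: quartiles and median, whiskers: lowest and highest member). Over all 82 members, the median was 0.42 in mutant 1 and −0.06 and −0.13 in mutants 2 and 3. Right, percent of each library held by the 82 members, of the total count (bars) and of the effective size after TMM (diamonds), where mutant 1 stands at 7.93% and 9.72%; red stands for mutants and blue for siblings.

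Scaling aside, the makeup of the family could be read from each gene's share of the summed member counts. By CPM, 7 of the 82 members had groups that did not overlap (8.54%, against 32.3% of all genes tested), namely *rps27l*, *rpl9*, *rpl26*, *rpl22*, *rps28*, *rpl11* and *rpl19*, each higher in mutants. *rpl19* was named after its values were seen. As a share of the member counts, 29 did not overlap, 14 higher and 15 lower in mutants, or 35.4%. Of all genes on the same scale, 25.1% did not overlap. This scale takes a shift common to the members out of them but carries it into all other genes. The 2 percentages are therefore not on equal terms, and their difference is not read as a result about the members. As shares add up to a fixed sum, higher shares of some members go with lower shares of others. *rps28*, a small subunit protein by the mRNA exit channel, took 0.682%, 0.706% and 0.675% of the member counts in mutants, against 0.566%, 0.583% and 0.532% in siblings. *rps7* took 0.986%, 0.899% and 0.883% in mutants, against 1.09%, 1.12% and 1.06% in siblings, and *rps19* 0.824%, 0.794% and 0.771% in mutants, against 0.886%, 0.974% and 0.917% in siblings. *rps28*, *rps7* and *rps19* are among the 29 without overlap. By that definition, mutant 1 lay on the same side of the siblings as the other mutants for each of them. For other members, such as *rps6* and both *rpl5* copies, the groups overlapped on this scale. *rps2*, the most abundant member, took 6.49%, 6.44% and 6.59% in mutants, against 5.63%, 6.19% and 6.28% in siblings. *rpl12* took 1.42%, 1.28% and 1.45% in mutants, against 1.69%, 1.498% and 1.75% in siblings. As a fold, the shares of these members moved less than that of *rps27l*, which took 0.0776%, 0.0941% and 0.103% of the member counts in mutants, against 0.0289%, 0.0234% and 0.0270% in siblings.

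Large and small subunit genes were compared next. In the large subunit 1 of 46 genes was called higher (*rpl9*) and in the small subunit 1 of 36 (*rps27l*), with 0 called lower in either and none under an unadjusted p of 0.05 in that direction. The median log2 fold change was 0.11 in the large and 0.08 in the small subunit. The log2 ratio of summed large to summed small subunit FPKM was 0.30, 0.33 and 0.34 in mutants, against 0.33, 0.30 and 0.33 in siblings. The groups overlapped, and their means differed by 0.0019 where the pooled SD was 0.017. The mean log2 CPM of large minus that of small subunit genes was 0.44, 0.48 and 0.47 in mutants, against 0.44, 0.45 and 0.44 in siblings. On this measure, in which each gene weighs the same, the groups also overlapped, and the difference of 0.021 was larger than the pooled SD of 0.016. With equal weights, single rows with large fold changes count fully. On the large side these include the low rows of *rpl9* (log2 fold change 1.83) and *rpl26* (1.04), and on the small side *rps27l* (1.84). How far such rows set the difference was not tested.

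No gene of the stalk or of the 5S particle passed the test. The stalk genes *rplp0*, *rplp1*, *rplp2* and *rplp2l* encode the acidic proteins that recruit and activate elongation factors. Their log2 fold changes were 0.12 (SE 0.18) for *rplp0*, 0.02 (SE 0.17) for *rplp1*, 0.35 (SE 0.21) for *rplp2* and 0.06 (SE 0.16) for *rplp2l*. *rplp2* had 581, 358 and 374 CPM in mutants, against 376, 303 and 349 CPM in siblings, so mutants 2 and 3 lay within the siblings. Of the genes whose products join 5S rRNA, *rpl11* had 1153, 857 and 848 CPM in mutants, against 805, 724 and 749 CPM in siblings, with no overlap, a log2 fold change of 0.33 (SE 0.16) and an adjusted p of 0.257 by edgeR. The *rpl5* copies stood at 0.00 (SE 0.17) and −0.01 (SE 0.19) on the log2 scale. Their CPM were 1061, 745 and 759.6 for ENSDARG00000015862 in mutants, against 905, 778 and 889 in siblings, and 1076, 738 and 677 for ENSDARG00000020197 in mutants, against 871, 825 and 808 in siblings. In both copies mutant 1 was above and mutants 2 and 3 below all siblings. In those libraries *rpl11* was above all siblings, and this difference in direction between *rpl11* and its partner *rpl5* was not tested.

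*rps6* and *rps27a*, members with known roles, lay near 0, while *rps28* was higher in mutants without being called. *rps6*, the substrate of S6 kinase, had 2207, 1666 and 1624 CPM in mutants, against 1849.9, 1691 and 1759.7 CPM in siblings, with a log2 fold change of 0.05 (SE 0.16). *rps27a*, which encodes a ribosomal protein fused to ubiquitin, had 1429.8, 1028 and 949 CPM in mutants, against 1056, 968 and 1038 CPM in siblings, with a log2 fold change of 0.15 (SE 0.18). In both, mutant 1 alone was above the siblings. *rps28* had 663, 499 and 453 CPM in mutants, against 440, 414 and 390 CPM in siblings, without overlap, and a log2 fold change of 0.38 (SE 0.17) that did not pass edgeR's test (adjusted p = 0.216).

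Paralogs were compared by the log2 ratio of their counts within each library, which needs no scaling, in 10 pairs of 8 families. In 5 pairs all mutants lay on one side of all siblings, each with p = 0.1 in a 2-sided exact permutation test, the smallest that 3 against 3 libraries allow, and 0.2 after Benjamini-Hochberg adjustment over the 10 pairs. The pairs of *rps27l* with *rps27.1* and with *rps27.2* are both among these pairs and share *rps27l*. The same count was not taken over pairs of other genes, so no share stands beside it. Since no pair could pass, the sizes and errors are given. The *rps27* family has 3 members in the table. *rps27l* against *rps27.1* differed by 1.79 (SE 0.13) and against *rps27.2* by 1.77 (SE 0.12), mutant minus sibling. The ratio of *rps27.2* to *rps27.1* differed by 0.018 (SE 0.033), a difference below its error. Per FPKM, *rps27l* made up 5.05%, 6.15% and 6.30% of the family in mutants, against 1.88%, 1.61% and 1.78% in siblings, and the family total was 1464 ± 75.4 FPKM in mutants and 1477 ± 71.9 FPKM in siblings (SD, n = 3 each). The totals of the family differed by less than the spread of either group.

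After *rps27* and *rpl22*, the largest shift was that of *rplp2* to *rplp2l*, with a difference of 0.28 (SE 0.097) between mutants and siblings. By FPKM, *rplp2* made up 46.5%, 41.0% and 43.1% of the pair in mutants, against 39.7%, 38.0% and 38.9% in siblings. The *rps26* copies, which encode a protein at the mRNA exit channel, differed by 0.13 (SE 0.028, ENSDARG00000030408 over ENSDARG00000037071), a small shift without overlap. The *rpl5* copies differed by 0.016 (SE 0.087), with overlapping groups. Where copies are nearly identical, as those under a shared symbol can be, reads may have been split between them by the counting, and the values of single copies are uncertain.

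**Figure D5:**
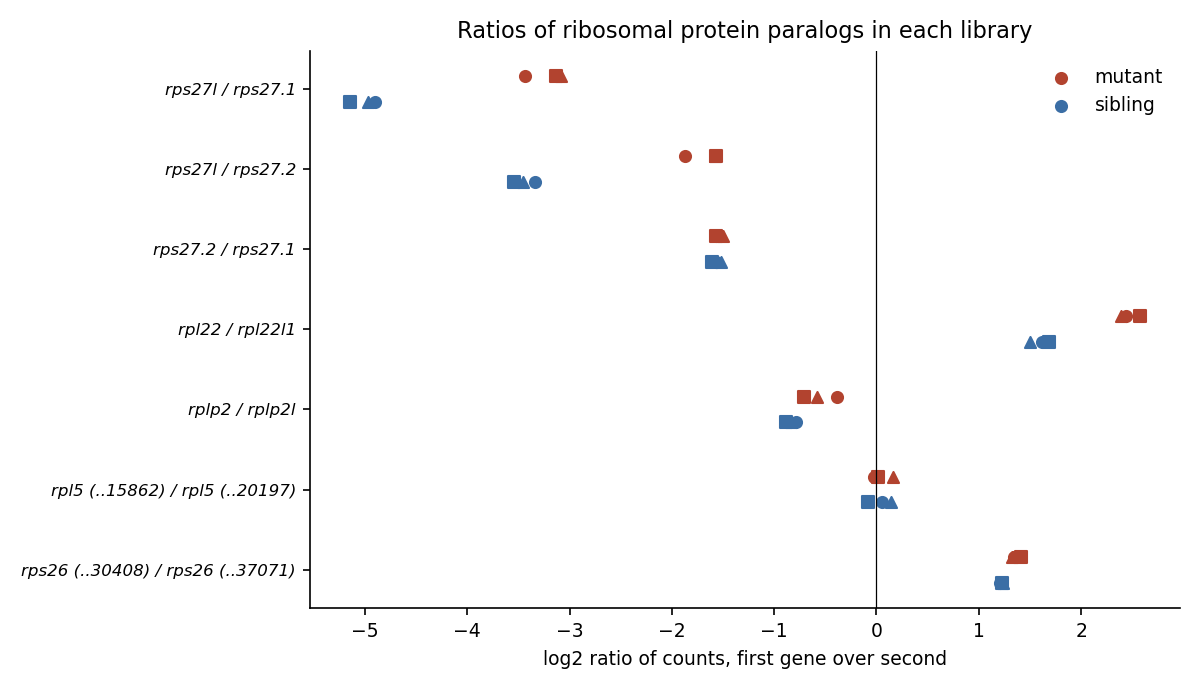
Log2 ratio of counts of the first over the second paralog in each library (circle, square and triangle: replicates 1, 2 and 3), mutants above siblings, for 7 pairs in which both genes exceed 10 CPM. The groups are apart by 1.79 for *rps27l* over *rps27.1* and by 0.86 for *rpl22* over *rpl22l1*, and overlap for *rps27.2* over *rps27.1* and for the *rpl5* copies.

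Genes that work beside the ribosomal proteins were read from lists in the same fit, in which 3.96% of all genes were called higher and 3.83% lower, 7.79% in all, and the median log2 fold change of all genes was 0.02. Of the ribosomal proteins whose symbols fall outside the rule, among them *fau*, which encodes a fusion of a ribosomal protein with a ubiquitin-like protein, *faub* and *rack1*, 0 of 4 were called or had an unadjusted p under 0.05, and the log2 fold changes lay between −0.02 and 0.25. In a list of 32 translation factors drawn up around TOP mRNAs, 1 rose, the helicase gene *eif4a2* at 0.87 (SE 0.12, adjusted p = 0.00674, edgeR), and 1 fell, *eif3h* at −0.92 (SE 0.14, adjusted p = 0.0118, edgeR). These calls were 6.25% of the list, against 7.79% of all genes, and the median of the list was 0.10. Without mutant 1 there were 5 calls, without mutant 3 there was 1, and without sibling 2 or sibling 3 there were 0. Calls over all genes also changed in these fits, as given below.

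Among the factors that assemble ribosomes, some rose. Of 106 ribosome biogenesis genes, 16 rose and 0 fell by edgeR, or 15.1% called higher against 3.96% of all genes. This list was chosen with earlier results of these data known, so its share is a description, not a test. An unadjusted p under 0.05 was found for 45 upward and 4 downward, beside 2856 and 3027 of the 24277 genes tested. DESeq2 called 26 of the list in all, where it called 6.57% of all genes higher and 6.26% lower. The list had a median log2 fold change of 0.23. *nmd3*, the export adaptor of the large subunit, rose most, at 54.0, 56.9 and 59.3 CPM in mutants, against 24.7, 22.0 and 22.8 CPM in siblings, with a log2 fold change of 1.29 (SE 0.11, adjusted p = 0.000932, edgeR). The smallest rise called was that of *ftsj3*, an rRNA methyltransferase gene, at 0.48 (SE 0.12, adjusted p = 0.0458, edgeR). The number called, like that of all genes, was sensitive to single libraries. It was 39 without mutant 1, 6 without mutant 2 and 4 without mutant 3. It was 3 without sibling 1, 1 without sibling 2 or sibling 3, and 2 with library sizes alone. Calls over all genes were 961 higher and 929 lower in the main fit, and 2040 and 2029 without mutant 1. They were 498 and 397 without mutant 2, 340 and 204 without mutant 3, and 318 and 187 without sibling 1. Without sibling 2 they were 247 and 112, without sibling 3 270 and 110, and with library sizes alone 400 and 519.

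Of 75 mitochondrial ribosomal proteins, 5 rose and 1 fell, and the median was 0.26. The share called, 8.0%, was close to the 7.79% of all genes. Above 0 were 68 of the 75, and 12555 of 24277 over all genes tested. Without adjustment, 22 of the list had a p under 0.05 upward and 1 downward, beside 2856 and 3027 of all genes. *mrps33* had 48.7, 44.4 and 49.0 CPM in mutants, against 12.8, 14.8 and 14.2 CPM in siblings, with a log2 fold change of 1.77 (SE 0.11, adjusted p = 0.000306, edgeR). *mrpl58*, a peptidyl-tRNA hydrolase of that ribosome, had 2.72, 2.37 and 2.81 CPM in mutants, against 5.36, 5.39 and 6.63 CPM in siblings, and fell by 1.14 on the log2 scale (SE 0.17, adjusted p = 0.0113, edgeR). Without mutant 1 there were 10 calls, and without sibling 2 or sibling 3 there were 2. The calls over all genes in these fits are given above.

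Another list held 14 genes of the 5S particle, of the checkpoint it acts on, and of the readout of p53. Of these, 7 rose and 1 fell, or 57.1% called, against 7.79% of all genes. The list mixes these kinds of genes, and what the called genes respond to was not tested. It was chosen with earlier results of these data known. By qPCR, the study had also reported higher levels of *p53* and its downstream genes in these mutants. A high share called was therefore likely beforehand, and it is given as a description, not as a test. *cdkn1a*, which encodes an inhibitor of the cell cycle and was named after its values were seen, had 37.8, 59.5 and 58.2 CPM in mutants, against 5.74, 4.66 and 10.8 CPM in siblings, a log2 fold change of 2.87 (SE 0.34, adjusted p = 0.00445, edgeR). *mdm4*, which encodes a relative of Mdm2, had 36.1, 37.3 and 37.1 CPM in mutants, against 55.1, 59.2 and 64.1 CPM in siblings, and a log2 fold change of −0.69 (SE 0.11, adjusted p = 0.011, edgeR). The assembly factors of the particle in this list, named after their values were seen, were not called: *rrs1* stood at 0.00 (SE 0.11) and *rpf2* at −0.38 (SE 0.11, adjusted p = 0.0851, edgeR). Without sibling 3, 5 of the 14 were called.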

How the data were processed

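RNA-seq libraries of 6 pools of heads were compared, 3 per genotype, with groups and replicate numbers from the labels. Per the submitters' processing notes, the authors used HISAT2 2.0.4 and the GRCz11 genome, and they deposited whole-number counts per gene without normalization. The study's text names featureCounts and the processing notes name HTSeq 0.9.1 for counting, and the use of strand is not given in the sources used here. The FPKM values that the authors deposited follow from these counts, each equal to the count over library total and a fixed gene length within a relative deviation of 2.5e-08 over 22043 genes.

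Genes were filtered with filterByExpr (24277 left), scaled by TMM and compared, unpaired, by the quasi-likelihood method of edgeR 4.0.16 (R 4.3.3), with Benjamini-Hochberg adjustment over all of them. The biological coefficient of variation was 0.243. edgeR's test reports no SE. Each SE given with an edgeR fold change is the absolute log2 fold change over the square root of the test's F statistic. Alternatives were RLE scaling, library sizes alone, DESeq2 1.42.0, a count minimum of 10 per library or none, limma 3.58.1 on FPKM of at least 0.5 with a pseudocount of 1 or 0.1 before the log2, the same at 1 with genes of any FPKM, the replicate number as a block, and each library left out. Scaling to the summed counts of the members, and shares of that sum, were added after seeing the data. Paralog ratios had 0.5 counts added to each gene. Other steps ran in Python 3.11.15 with pandas 2.3.3, numpy 2.4.6, matplotlib 3.10.9 and scipy 1.17.1, and the fits were tested on simulated data.

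Symbols came from the reference tables, matched in any case or without a paralog letter, so that a symbol of a list can stand for either copy. Members and lists were chosen with earlier results of these data known. Genes named are *prpf31*, members called, the 5 highest and 5 lowest fold changes, the 5 highest FPKM, members of paralog pairs, stalk and 5S particle genes, *rps6*, *rps19* and *rps27a*, and called or extreme genes of other lists. Some genes within this rule are counted but not reported here by name. The labels give both groups the replicate numbers 1 to 3. Deviations from the group means correlated at 0.415, 0.410 and 0.547 between libraries of the same number, over 19484 genes. Between others they correlated at −0.334 to −0.117. Deviations from a group mean sum to 0, so positive values at the same number bring negative values elsewhere, and these add nothing. By the positive values, libraries of the same number deviated together, though the labels do not say what they share. Only the fit with the replicate number as a block used this pairing. The errors and p values of the main fit and of the paralog ratios did not.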

Additional observations from a re-analysis of the deposited data

How the results depend on the processing

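The calls of *rps27l* and *rpl9* held in every setting tried, and of the 30 named members not called, 20 changed sign in at least 1 setting. Members called higher numbered 4 with DESeq2, and 2 to 4 as libraries were left out, while those called lower numbered 0 to 5, with the 4 and the 5 both found without mutant 1. With the replicate number as a block, 2 members were called higher and 0 lower, the same as without it, and the block ended or added no call of a member. Over all genes, the block gave 1479 called higher and 1605 lower, against 961 and 929 without it. The difference in the members' share of a library turned to 0.44 percentage points against the effective size, and lay between −0.64 and −0.17 points of all counts as libraries were left out. The large to small subunit difference of summed FPKM (0.0019) lay between −0.0074 and 0.012 with libraries left out, and was 0.021 when taken as mean log2 CPM instead. Calls among mitochondrial ribosomal proteins (6 in the main fit) numbered 13 with DESeq2, 1 with scaling to the member counts and 2 to 10 with libraries left out. Translation factors (2) had 1 with limma without a filter, 0 with scaling to the member counts and 0 to 5 with libraries left out. Biogenesis genes (16) had 2 with library sizes alone, 26 with DESeq2, 3 with each limma fit, 1 with scaling to the member counts and 1 to 39 with libraries left out. The list of the 5S particle, its checkpoint and the p53 readout (8) had 5 with limma without a filter and 5 to 8 with libraries left out. Calls over all genes changed too, to 1766 higher and 1681 lower with DESeq2, and 286 and 118 with scaling to the member counts. *prpf31*, at −0.62 in the main comparison, did not pass at −0.74 with library sizes alone, at −0.73 and −0.76 by limma with pseudocounts of 1 and 0.1, at −0.73 without a filter, or at −0.65 with scaling to the member counts, and lay between −0.70 and −0.56 with libraries left out. Differences of paralog ratios lay between 1.72 and 1.90 for *rps27l* over *rps27.1* and between 0.81 and 0.91 for *rpl22* over *rpl22l1* with libraries left out. In the main fit, changes under about 0.2 on the log2 scale were near or within the error of a typical member. This limit depended on the setting. For *rps19* and *rps7* the SE was 0.18 and 0.20 in the main fit, and 0.13 for both with library sizes alone. Without mutant 1, where both were called, it was 0.070 and 0.075. What set the size of the errors was not tested.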
